A study of Mus musculus with 18 samples.

Results

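The genes described here are the chaperones and heat shock genes of differentiating mouse embryonic stem cells (ESCs), taken by name alone. They are the protein-coding genes whose symbol begins with Hspa, Hspb, Hspd, Hspe, Hsph, Hsp90, Dnaja, Dnajb, Dnajc, Cct, Fkbp or Bag followed by a number, together with Ahsa1, Ahsa2, Tcp1, Hspd1, Hspe1, Stip1 and Ptges3. Of the 10965 genes measured, 72 met this definition. The authors of the study had already filtered the genes on expression and variability, so genes removed there could not be members. The members were then chosen by name with no further expression value, though with earlier results of these data known. They comprised 7 subunits of the chaperonin TRiC/CCT, both parts of the mitochondrial chaperonin, 3 HSP90 genes, 8 HSP70 and HSP110 genes, 4 small heat shock proteins, 2 DNAJA, 6 DNAJB and 19 DNAJC genes, 12 FKBP genes, 6 BAG genes and the cochaperones Stip1, Ahsa1 and Ptges3. Ahsa2, the paralogs Hspa1a and Hspa1b and the constitutive HSP70 gene Hspa8 were not analysed here.

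Chaperones bind unfolded or partly folded proteins and keep them from aggregating until they reach their native form. HSP70 takes up extended peptides with the help of J proteins (the DNAJ families), which stimulate its ATPase, and of nucleotide exchange factors such as HSP110 and BAG proteins. HSP90 completes the maturation of kinases and steroid receptors together with cochaperones, among them Stip1, Ahsa1, Ptges3 and the FKBP prolyl isomerases, while TRiC/CCT folds actin and tubulin in its closed chamber. Many of these genes are induced by heat shock factor 1 when proteins misfold, and those of the endoplasmic reticulum (ER) by the unfolded protein response. Pluripotent stem cells are known for high chaperone levels.

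RNA-seq was carried out in 18 libraries, 3 for each of 6 groups. Ctrl ESCs (CD1 strain, Zeb2 fl/fl, with both copies of Zeb2 floxed and intact) and Zeb2 KO ESCs (CD1, Zeb2 -/-) were sampled at d0, d4 and d6 of neural differentiation (ND). At d0 the cells were feeder-free ground state ESCs in N2B27 with 2i + LIF, that is the MEK inhibitor PD0325901 and the GSK3 inhibitor CHIR99021 (0.4 and 1 µM per the labels, 1 and 3 µM per the methods) with LIF at 1000 U/ml. They were then grown as embryoid bodies (EBs) in medium with 15% serum until d4, and afterwards in N2B27 with 500 nM retinoic acid. Zeb2 encodes a zinc finger transcription factor that acts mostly as a repressor and binds E-boxes. The KO lines were made from the floxed ESCs with Cre recombinase, and which line was sequenced is not given in the sources used here. The study describes the libraries of a stage as independent experiments, and the labels do not say which libraries of different groups belong to the same one.

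Expression was given as TPM, read counts scaled for gene length and for the total of each library. From 9624677 to 15621169 reads per library lay on the measured genes, and 1 read per kb was worth 0.238 to 0.371 TPM. Zeb2 itself measured 0.129 ± 0.00754, 1.36 ± 0.121 and 7.66 ± 0.138 TPM (mean ± SD of 3 libraries) at d0, d4 and d6 in Ctrl, and 0.0216 ± 0.00526, 0.164 ± 0.0388 and 0.681 ± 0.0763 TPM in Zeb2 KO. The summed TPM of 8 pluripotency markers was 5783 to 5955 in Ctrl and 5545 to 5847 in Zeb2 KO at d0, and 853 to 971 against 1873 to 2370.2 at d6, with 5 of the 8 higher and 1 lower in Zeb2 KO at d6. That of the 7 neural progenitor markers measured was 461 to 538 in Ctrl and 93.8 to 112 in Zeb2 KO at d6, all 7 lower. The 5 endoderm markers summed to 81.5 to 123 and 15.9 to 22.7 TPM at d6. Of 3 mesoderm markers, Meox1 measured 185 to 229 TPM in Ctrl and 0.605 to 1.26 in Zeb2 KO at d4, Eomes and Twist1 were not called at d4, and Eomes was higher in Zeb2 KO at d6 (log2 FC 1.86, adjusted p = 1.66e-06). Of 7 handling and stress genes, 1 was higher and 1 lower at d0, none higher and 2 lower at d4, and 1 higher and 1 lower at d6. Markers of cell type thus moved with genotype on d4 and d6. In bulk RNA, a change in the share of cells of a type and a change of RNA per cell cannot be told apart, and the part of cell make-up in the results below was not tested.

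Whole chromosomes also moved between groups. Relative to the other chromosomes, the median log2 level of chromosome 8 was -0.23 to -0.19 in the Ctrl libraries and 0.23 to 0.25 in the Zeb2 KO libraries at d0, where 0 is the mean over all libraries. It was 0.26 to 0.27 and 0.22 to 0.24 at d4 and -0.27 to -0.25 and -0.29 to -0.27 at d6. Chromosome 12 ran in parallel (-0.28 to -0.26 in Ctrl and 0.19 to 0.21 in Zeb2 KO at d0), and chromosome 6 to a smaller extent (-0.17 to -0.14 and 0.05 to 0.08). The genotypes thus stood far apart on chromosomes 8 and 12 at d0 and close together at d4 and d6, and both dropped there between d4 and d6. Between d0 and d4 Ctrl gained on both chromosomes, while Zeb2 KO kept its level on chromosome 8 and moved to 0.24 to 0.28 on chromosome 12. Of the 72 genes, 12 lie on chromosomes 8 and 12. Their counts at d0 and over time, and the d0 values of those called higher, are therefore also given with each chromosome's median removed in each library.

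Some values cannot be assigned to 1 gene alone. Reads were 36 bases long and strand-specific counting is not stated in the sources used here, and 20 of the 72 genes share exon bases with another annotated gene, 14 of them with a protein-coding gene, for instance Dnajc14 with Ormdl2 over 1114 bases, Fkbp3 with Prpf39 over 599, Tcp1 with Acat3 over 571, Hspb2 with Cryab over 252 and Hspd1 with Hspe1 over 112. Pseudogenes of Hspd1, Hspe1, Hspb1, Hspa9 and Cct3 were measured as genes of their own, so the split of reads between these genes and their copies is uncertain. The lengths behind the TPM values differ from the annotated exon lengths for most of the 72 genes, which bears on comparisons of level between genes but not between libraries.

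The chaperone genes covered a wide range of levels. Mean TPM over all libraries ran from 2.43 to 4661 with a median of 77.9; 7 genes exceeded 1000 TPM and 9 stayed under 10. Hsp90ab1, the constitutive cytosolic HSP90, was the most abundant, with 4706, 4829 and 4593 TPM in the Ctrl libraries at d0. On this TPM scale it was followed by Cct2, Cct7, Fkbp3, Stip1, Fkbp4 and Ahsa1. All members summed to 21739.5, 22091 and 20977 TPM in Ctrl and 23013, 21886 and 23374 TPM in Zeb2 KO on d0. By d6 the sums were 16990.5, 17886 and 18036 TPM in Ctrl and 20914, 21005 and 22213 in Zeb2 KO, so that Zeb2 KO held 105%, 116% and 121% of the Ctrl mean at d0, d4 and d6.

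Zeb2 KO was compared with Ctrl on each day to ask how its chaperone expression differs in ESCs and in EBs. A gene counted as called with a limma p, adjusted by Benjamini-Hochberg over all genes, below 0.01, and log2 FC is the difference of mean log2(TPM + 1), KO minus Ctrl, which understates the change of genes of low TPM. At d0, 9 of the 72 genes were higher and 9 lower in Zeb2 KO, where 10.6% of all genes were higher and 16.4% lower. At d4, 19 were higher and 9 lower, against 12.7% and 32.7% of all genes. At d6, 27 were higher and 15 lower, against 17.9% and 34.3%. Counted without a test, the 3 Zeb2 KO libraries lay wholly above Ctrl for 18 of the 72 genes and wholly below for 23 at d0 (19.9% and 31.5% of all genes), for 27 and 22 at d4 (20% and 45.7%), and for 32 and 17 at d6 (22.7% and 41.1%). The median log2 FC of the 72 genes was -0.04, 0.04 and 0.11 at d0, d4 and d6, and that of all genes was -0.07, -0.16 and -0.14. Median-ratio rescaling of the libraries moved the median of all genes to 0.00 at d4 and 0.01 at d6 and that of the chaperones to 0.22 and 0.27, and the calls to 33 higher and 5 lower at d4 and 34 and 11 at d6. Calls at d4 were 22 higher and 5 lower under quantile normalization and 34 and 5 with chromosome medians removed. Voom on recovered reads gave 29 and 6 at d4. Calls at d6 were 35 and 11 with chromosome medians removed, and those of d0 were 13 and 8 under both median-ratio rescaling and voom. Quantile normalization gave medians at d4 and d6 of 0.005 and 0.019 for all genes and 0.088 and 0.097 for the chaperones. The chaperone median thus stood less far above that of all genes than on the deposited scale or after median-ratio rescaling.

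Abundant and scarce members differed in these counts. Among the 30 chaperone genes with a mean of at least 100 TPM, 15 were higher and 2 lower at d4, and 16 were higher and 2 lower at d6. Of all 2099 genes at this level, 25.2% were higher and 21.5% lower at d4, and 28.2% and 22.2% at d6. The 42 members below 100 TPM were split 4 higher and 7 lower at d4 and 11 higher and 13 lower at d6, beside 9.8% and 35.4%, and 15.5% and 37.2%, of all 8866 genes at that level.

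**Figure D1:**
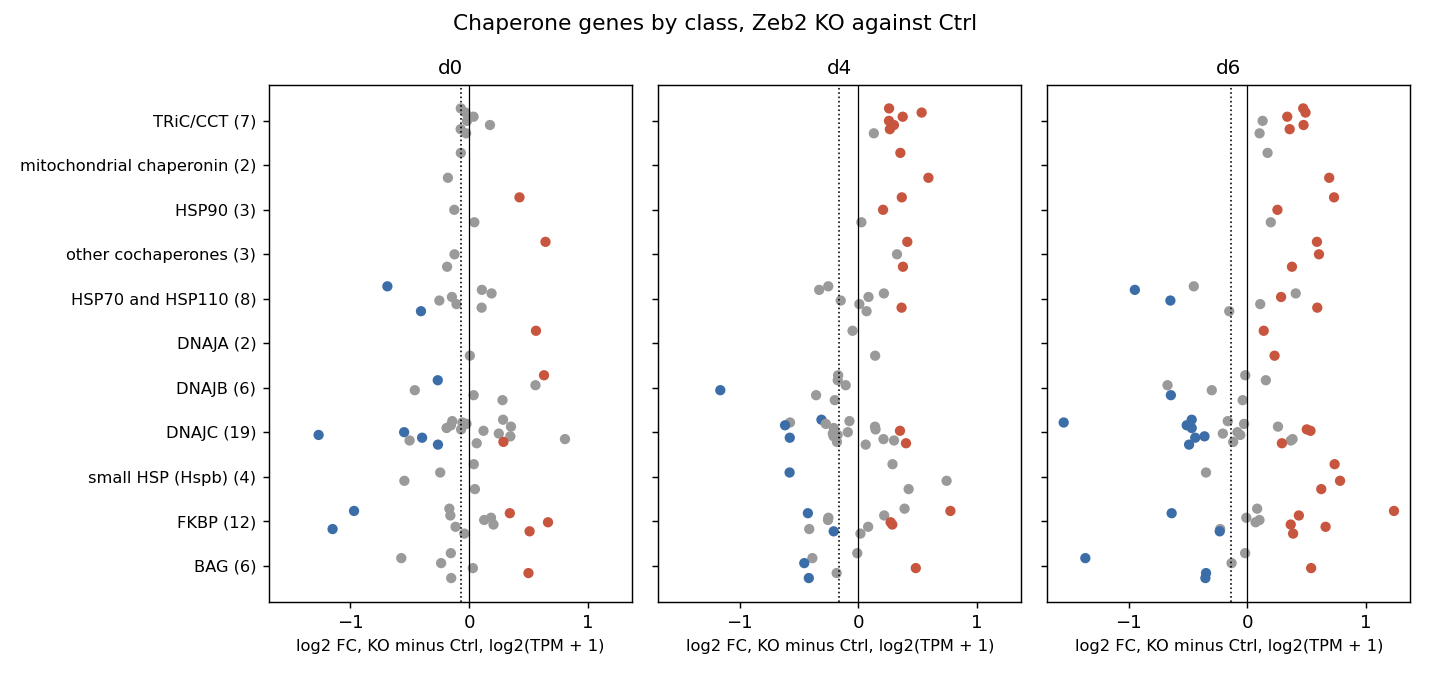
The log2 FC of each of the 72 genes, Zeb2 KO minus Ctrl on log2(TPM + 1) (horizontal axis), by class (vertical axis, number of genes in brackets) at d0, d4 and d6. Red points are called higher and blue points called lower at adjusted p below 0.01 (limma, 3 libraries per group), grey points are not called and the dotted line is the median of all genes. At d4 and d6 every TRiC/CCT, HSP90 and mitochondrial chaperonin gene lies right of 0 on the deposited scale (under quantile normalization Hsp90ab1 and Cct5 at d6 and Hsp90b1 at d4 lay left of it), while the DNAJC and BAG genes lie on both sides.

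The folding chamber TRiC/CCT was higher in Zeb2 KO EBs as a group, Cct5 at d6 alone turning below 0 under quantile normalization (-0.06). None of its 7 measured subunits was called at d0, 6 were higher at d4 and 5 at d6, and none was lower on any day. Among all genes, 12.7% were higher and 32.7% lower at d4, and 17.9% and 34.3% at d6. Among genes with a mean of at least 100 TPM, 25.2% were higher and 21.5% lower at d4, and 28.2% and 22.2% at d6. Cct3 (gamma subunit, chr3:88297116-88321767 of GRCm38) measured 271, 290.4 and 251 TPM in Ctrl and 279.9, 246 and 269 TPM in Zeb2 KO at d0. At d4 it measured 203, 181 and 177 TPM in Ctrl and 282, 278 and 254 TPM in Zeb2 KO (log2 FC 0.53, SE 0.08, adjusted p = 4.92e-05), and at d6 194, 203 and 188 TPM in Ctrl and 249.9, 266 and 311 TPM in Zeb2 KO (log2 FC 0.49, SE 0.08, adjusted p = 7.58e-05). The genotypes overlapped at d0 and were fully apart on both later days, Zeb2 KO remaining near the ESC level. Cct2 (beta subunit), the most abundant of the group, gave 1904, 1824 and 1753 TPM in Ctrl and 2115, 2273 and 2176 TPM in Zeb2 KO at d4 (log2 FC 0.26, SE 0.06, adjusted p = 0.00111). Its d6 values were 1554, 1618 and 1631 TPM in Ctrl and 2127, 2155 and 2384 TPM in Zeb2 KO (log2 FC 0.47, SE 0.06, adjusted p = 2.81e-06), with no overlap. The remaining subunits were named to complete the complex, after their values were seen. Cct4, Cct7 and Cct8 were higher by 0.38, 0.30 and 0.27 at d4 and by 0.34, 0.47 and 0.36 at d6, and Cct5 by 0.26 at d4 (adjusted p = 0.00281), while its d6 value was 0.13, adjusted p = 0.0939. Tcp1, the alpha subunit, was not called on any day (log2 FC 0.13 at d4 and 0.10 at d6). Over the alternatives tried, 3 to 7 subunits were called at d4 and 5 to 7 at d6, none of them lower. The Cct2 call at d4 was lost under quantile normalization (0.13). For Cct5 at d4, the call ended under quantile normalization (0.10), in a fit to its 2 groups alone and without Ctrl d4 replicates 2 or 3 or KO d4 replicate 2 (0.22 to 0.23, adjusted p up to 0.0174). Cct7 at d4 was no longer called under quantile normalization (0.13).

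The sum over these 7 subunits, without Cct6a, summarises the group. It was 5525, 5629 and 5221 TPM in Ctrl and 5606, 5293 and 5624 TPM in Zeb2 KO ESCs. At d6 it was 4451, 4647 and 4603 in Ctrl and 5694, 5795 and 6425 in Zeb2 KO. Zeb2 KO thus held 101%, 122% and 131% of the Ctrl mean at d0, d4 and d6. The KO minus Ctrl difference at d6 exceeded that at d0, by a test of the difference itself, in 24 of the 72 genes and fell short of it in 12 (17.8% and 25.9% of all genes). It grew from d0 to d6 for Cct2 (log2 FC 0.54, SE 0.08, adjusted p = 3.68e-05) and Cct3 (0.52, adjusted p = 0.00124), and likewise for Cct8 (0.43, adjusted p = 4.57e-05) and Cct7 (0.30, adjusted p = 0.00754).

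**Figure D2:**
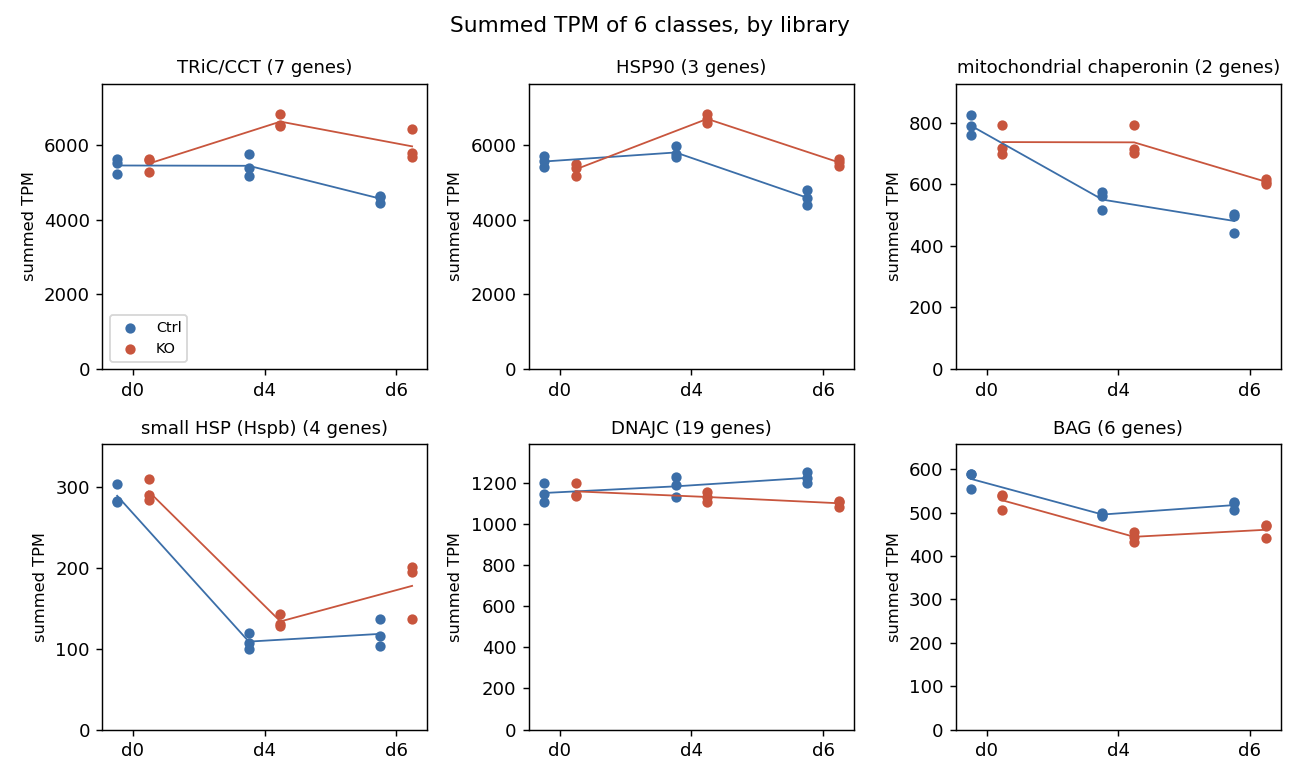
Summed TPM (vertical axis, from 0) of 6 chaperone classes at d0, d4 and d6, with a point for each library and lines through the means of 3 libraries, Ctrl in blue and Zeb2 KO in red. The TRiC/CCT sum lies between 5221 and 5629 TPM in the 6 d0 libraries, and at d6 all 3 Zeb2 KO libraries lie above the Ctrl libraries; the DNAJC and BAG sums of Zeb2 KO lie below Ctrl at d6.

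The mitochondrial chaperonin, formed by the HSP60 ring (Hspd1) and its HSP10 lid (Hspe1), was also higher in Zeb2 KO. Hspe1 (chr1:55088132-55091307) measured 244, 268 and 214 TPM in Ctrl and 211, 192 and 236 TPM in Zeb2 KO at d0, with overlap. At d4 it measured 152, 116 and 147 TPM in Ctrl and 215, 226 and 184 TPM in Zeb2 KO (log2 FC 0.59, SE 0.11, adjusted p = 0.000209), and at d6 134, 143 and 138 TPM in Ctrl and 217, 221 and 234 TPM in Zeb2 KO (log2 FC 0.69, SE 0.11, adjusted p = 3.35e-05). The Ctrl mean at d4 was 57.2% of that at d0, and the Zeb2 KO mean 97.7%. Hspd1 measured 423, 398 and 414 TPM in Ctrl and 487, 565 and 531 TPM in Zeb2 KO at d4 (log2 FC 0.36, SE 0.07, adjusted p = 0.000351) and 306, 355 and 366 TPM in Ctrl and 389, 381 and 382 TPM in Zeb2 KO at d6 (log2 FC 0.17, adjusted p = 0.0378), where it was not called although the groups did not overlap. Hspa9, the HSP70 of the matrix, gave 358, 384 and 386 TPM in Ctrl and 619, 555 and 530.0 TPM in Zeb2 KO at d6 (log2 FC 0.59, SE 0.06, adjusted p = 1.59e-07), after 532, 524 and 528 TPM in Ctrl and 647, 685 and 711 TPM in Zeb2 KO at d4 (log2 FC 0.37, SE 0.06, adjusted p = 4.54e-05). Of the 6 mitochondrial members, which also include the J proteins Dnaja3, Dnajc11 and Dnajc15, none was called at d0, 3 were higher at d4 and 3 at d6, and none was lower. Of all genes, 12.7% were called higher and 32.7% lower at d4, and 17.9% and 34.3% at d6. Dnaja3 was higher at d6 only (log2 FC 0.23, SE 0.06, adjusted p = 0.002). The Dnaja3 call at d6 was lost in a fit to its 2 groups alone and without Ctrl d6 replicate 1 or KO d6 replicate 3 (0.18 to 0.19, adjusted p up to 0.0141).

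Hspd1 and Hspe1 lie head to head on chromosome 1 and share the DNA between them. The sequence before the start site of Hspe1 is shown because it holds the motif that heat shock factor recognises, inverted repeats of GAA. It spans chr1:55087998-55088147 (GRCm38.p6, RefSeq, plus strand, the 150 bases that end at the base before the start site), with the matches to GAANNTTC or TTCNNGAA in capitals, which overlap each other. The upstream stretches of Cct2 (chr10:117063376-117063525, minus strand), Hspb1 (chr5:135887769-135887918, plus strand) and Hsph1 (chr5:149636337-149636486, minus strand) are shown beside it as members of other classes with the same motif.
Hspe1: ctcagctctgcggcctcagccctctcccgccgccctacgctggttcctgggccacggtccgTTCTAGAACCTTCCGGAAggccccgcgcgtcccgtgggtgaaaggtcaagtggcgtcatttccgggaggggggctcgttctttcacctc
Cct2: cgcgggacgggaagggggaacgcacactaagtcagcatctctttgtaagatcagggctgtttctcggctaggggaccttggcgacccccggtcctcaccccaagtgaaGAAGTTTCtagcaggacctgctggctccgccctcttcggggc
Hspb1: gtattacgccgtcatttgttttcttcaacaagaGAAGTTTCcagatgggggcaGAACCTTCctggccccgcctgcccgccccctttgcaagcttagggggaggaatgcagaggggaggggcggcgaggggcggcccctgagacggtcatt
Hsph1: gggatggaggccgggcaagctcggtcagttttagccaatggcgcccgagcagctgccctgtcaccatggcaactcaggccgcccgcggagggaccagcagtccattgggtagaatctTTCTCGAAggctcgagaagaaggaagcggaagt
The matches begin 89, 84 and 79 bases before the start site in Hspe1, 42 bases before it in Cct2, 117 and 97 bases in Hspb1 and 33 bases in Hsph1. RefSeq gave a window of 300 bases around the start site for 59 of the 72 genes. Of these, 13 (22%) held GAANNTTC or TTCNNGAA on either strand, Bag3, Cct2, Cct5, Dnajb4, Dnajc10, Dnajc27, Dnajc5g, Fkbp4, Hspb1, Hspb8, Hspd1, Hspe1 and Hsph1, compared with 17% of all 27025 genes with such windows. The motif of 3 units, GAANNTTCNNGAA or TTCNNGAANNTTC, which contains the shorter one, occurred in 3 members (Hspd1, Hspe1 and Hsph1, 5.08%) and in 0.662% of all genes. As Hspd1 and Hspe1 lie head to head, their entries in both counts need not be separate sites. Of the 13 genes with the shorter motif, none was higher and 2 were lower at d0, and 5 were higher and 2 lower at both d4 and d6. Of all 72 members, 12.5% were higher and 12.5% lower at d0, 26.4% and 12.5% at d4, and 37.5% and 20.8% at d6. The shares of all genes were 10.6% and 16.4%, 12.7% and 32.7%, and 17.9% and 34.3%. The count of motif genes higher at d6 was thus near the share of all members. Heat shock factor 1 and 2 transcripts themselves were not called at d4 or d6, and 1 of them was lower at d0. The presence of these letters is a description of the window and not evidence of binding.

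Of HSP90 and its cochaperones, 5 of 6 genes were higher in Zeb2 KO at d6 (Hsp90ab1 not under quantile normalization, -0.02), and the inducible Hsp90aa1 and its activator Ahsa1 already at d0. Among all genes, 17.9% were higher at d6 and 10.6% at d0. Hsp90aa1 (chr12:110690605-110702728) measured 497, 492 and 465 TPM in Ctrl and 651, 632 and 668 TPM in Zeb2 KO at d0 (log2 FC 0.42, SE 0.06, adjusted p = 5.99e-05). It measured 549.7, 492 and 462 TPM in Ctrl and 649.7, 651 and 635 TPM in Zeb2 KO at d4 (log2 FC 0.37, SE 0.06, adjusted p = 0.000123), and 188, 183 and 202 TPM in Ctrl and 337, 301 and 314 TPM in Zeb2 KO at d6 (log2 FC 0.73, SE 0.06, adjusted p = 4.85e-08). Zeb2 KO libraries were above Ctrl on all 3 days, and both genotypes fell between d4 and d6. The gene lies on chromosome 12, and with chromosome medians removed its d0 value was 0.06, adjusted p = 0.507, that at d4 0.54, adjusted p = 4.65e-06 and that at d6 0.92, adjusted p = 4.95e-09. Ahsa1 (chr12:87266479-87273998), which stimulates the HSP90 ATPase and also lies on chromosome 12, measured 1049, 1051 and 946 TPM in Ctrl and 1627, 1459 and 1679 TPM in Zeb2 KO at d0 (log2 FC 0.64, SE 0.06, adjusted p = 1.89e-06). At d6 it measured 504, 529.5 and 497 TPM in Ctrl and 789, 713 and 799 TPM in Zeb2 KO (log2 FC 0.59, SE 0.06, adjusted p = 9.67e-07), again without overlap. Its difference at d0 was 0.28, adjusted p = 0.00551 with chromosome medians removed.

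Stip1 (HOP), which links HSP70 to HSP90, measured 1204, 1194 and 1121 TPM in Ctrl and 1074, 946 and 1079 TPM in Zeb2 KO at d0, not called. At d4 it measured 1072, 934 and 947 TPM in Ctrl and 1254, 1299.8 and 1275 TPM in Zeb2 KO (log2 FC 0.38, SE 0.07, adjusted p = 0.00016) and at d6 882, 987 and 971 TPM in Ctrl and 1201, 1232 and 1249 TPM in Zeb2 KO (log2 FC 0.38, SE 0.07, adjusted p = 0.000116). The Zeb2 KO libraries of Stip1 thus lay below those of Ctrl at d0 and above them at d4 and d6. The constitutive Hsp90ab1 measured 4887, 4681 and 4770.1 TPM in Ctrl and 5429, 5632 and 5517 TPM in Zeb2 KO at d4 (log2 FC 0.21, SE 0.06, adjusted p = 0.00465) and 3775, 3948 and 4088 TPM in Ctrl and 4635, 4612 and 4830.4 TPM in Zeb2 KO at d6 (log2 FC 0.25, SE 0.06, adjusted p = 0.000929). These differences are small on the log2 scale and sit on the largest TPM values of the 72 genes. Ptges3 (p23), named to complete the class, was 47.5, 53.3 and 44.5 TPM in Ctrl and 64.1, 73.5 and 85.6 TPM in Zeb2 KO at d6 (log2 FC 0.60, SE 0.10, adjusted p = 0.000103), and its d4 difference of 0.33 was not called (adjusted p = 0.0135). Hsp90b1, the ER form (GRP94), was not called on any day, with log2 FC 0.04, 0.03 and 0.20 at d0, d4 and d6. The 3 HSP90 genes summed to 116% of Ctrl at d4 and 121% at d6. For Hsp90ab1 at d4, the call ended under quantile normalization (0.08), in a fit to its 2 groups alone and without Ctrl d4 replicates 2 or 3 or KO d4 replicates 2 or 3 (0.19 to 0.21, adjusted p up to 0.0219). Hsp90ab1 at d6 was no longer called under quantile normalization (-0.02) and in a fit to its 2 groups alone. The Stip1 call at d6 was lost under quantile normalization (0.08).

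**Figure D3:**
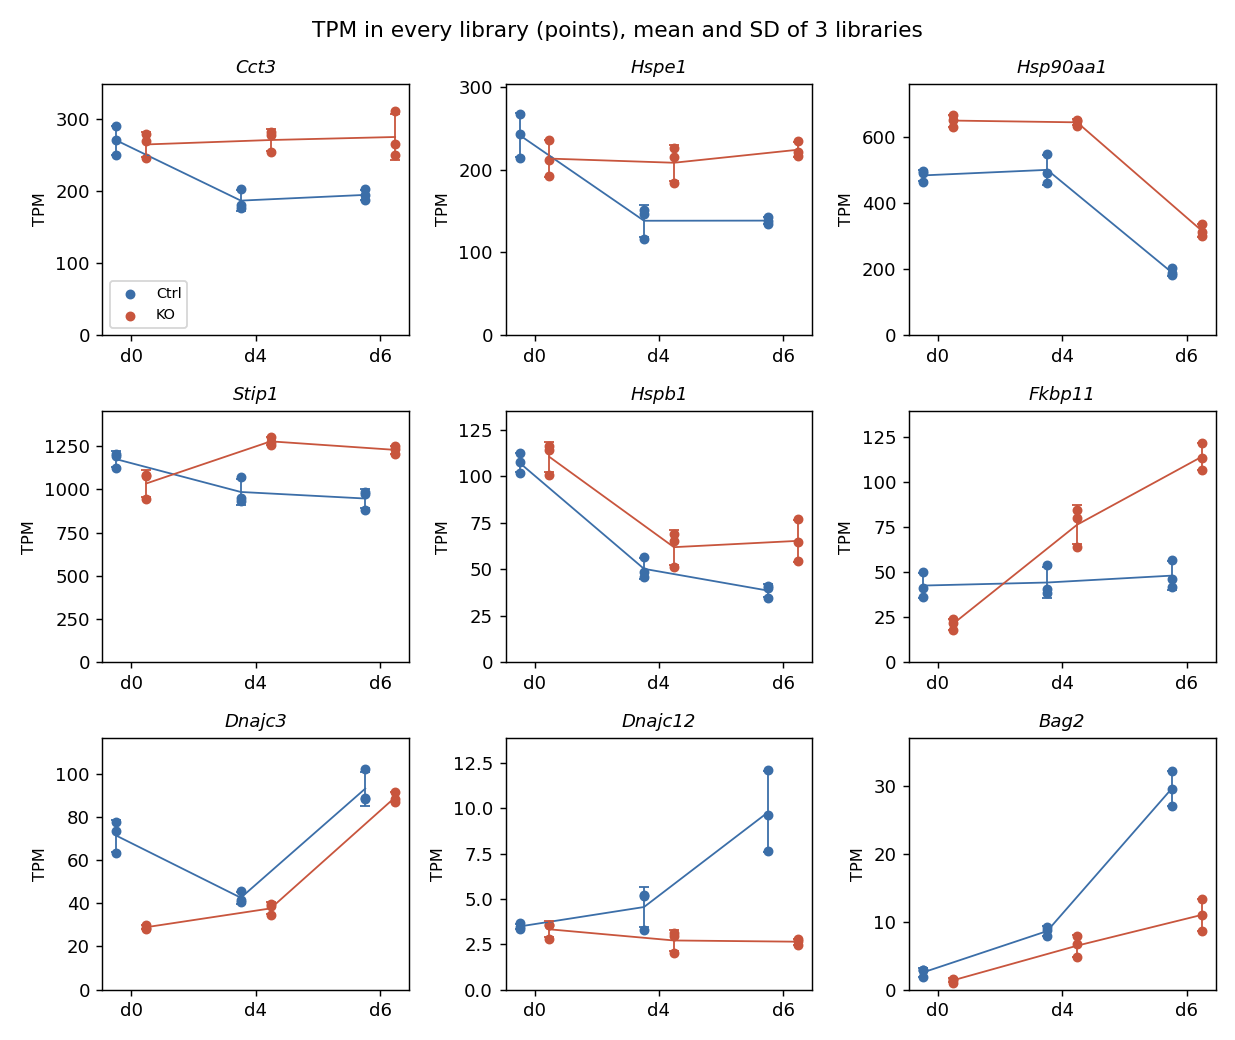
TPM (vertical axis, from 0) of 9 chaperone genes at d0, d4 and d6, each point being 1 library, with lines through the means and bars of 1 SD (n = 3), Ctrl in blue and Zeb2 KO in red. Cct3, Hspe1 and Stip1 overlap or lie close at d0 and separate by d4, Fkbp11 crosses from below Ctrl to above it, Dnajc3 is far lower in Zeb2 KO at d0 and near Ctrl at d4 and d6, and Dnajc12 and Bag2 rise in Ctrl by d6 to 9.80 and 29.6 TPM on average. The rise of Dnajc12 is tied to the authors' expression filter and carries no weight as a result.

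The HSP70 and HSP110 genes showed no common direction. At d6, Hspa9 and Hspa4 were higher and Hspa13 and Hspa4l lower among the 8, beside 17.9% higher and 34.3% lower of all genes. Hspa4, a cytosolic HSP110, was higher at d6 (log2 FC 0.28, SE 0.05, adjusted p = 8.81e-05) and its relative Hspa4l (chr3:40744495-40796103) lower, with 60.7, 54.2 and 65.5 TPM in Ctrl and 36.2, 41.1 and 36.5 TPM in Zeb2 KO (log2 FC -0.65, SE 0.14, adjusted p = 0.000875). Hspa4l rose in both genotypes from d0 to d4, by 1.84 in Ctrl and 1.95 in Zeb2 KO, and was not called between the genotypes at d4 (log2 FC -0.15, adjusted p = 0.391). The microsomal HSP70 Hspa13 (chr16:75745431-75767104) measured 11, 13.6 and 11.3 TPM in Ctrl and 13, 12.7 and 13 TPM in Zeb2 KO at d0. It measured 26.6, 21.8 and 23.4 TPM in Ctrl and 11.6, 11.6 and 12.4 TPM in Zeb2 KO at d6 (log2 FC -0.95, SE 0.10, adjusted p = 8.50e-07), a level in Zeb2 KO close to that of d0 and in Ctrl 200.1% of it. The HSP110 gene Hsph1, with 3 heat shock motif matches in its window, was lower at d0 (log2 FC -0.41, SE 0.07, adjusted p = 0.00017) and not called at d4 or d6. Hspa5 (BiP), the ER HSP70, was not called on any day, with log2 FC -0.11, 0.01 and 0.11, nor was the testis-enriched Hspa2. Hspa12a, a distant relative of HSP70, measured 1.46, 2.63 and 2.82 TPM in Ctrl and 0.935, 1.12 and 0.982 TPM in Zeb2 KO at d0 (log2 FC -0.69, SE 0.15, adjusted p = 0.00218). For Hspa12a at d0, the call ended under a pseudocount of 5 (-0.28), quantile normalization (-0.48) and the voom fit to recovered reads (-1.06), in a fit to its 2 groups alone and without Ctrl d0 replicates 2 or 3 (-0.61 to -0.57, adjusted p up to 0.0147).

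Among the ER chaperones, single genes moved far while Hspa5 and Hsp90b1, 2 of the ER stress targets, were not called. Other ER folding genes and factors of the unfolded protein response, some of them called, are given further below. Fkbp11 (chr15:98724366-98728198), an ER prolyl isomerase of secretory cells, was lower in Zeb2 KO ESCs, with 36.3, 50.2 and 41.6 TPM in Ctrl and 17.9, 21.8 and 24.1 TPM in Zeb2 KO at d0 (log2 FC -0.97, SE 0.16, adjusted p = 0.000143). It measured 54.1, 38.3 and 40.7 TPM in Ctrl and 64.1, 84.8 and 80.4 TPM in Zeb2 KO at d4 (log2 FC 0.78, SE 0.16, adjusted p = 0.00054) and 41.6, 56.9 and 46.1 TPM in Ctrl and 107, 114 and 122 TPM in Zeb2 KO at d6 (log2 FC 1.24, SE 0.16, adjusted p = 4.17e-06). The order of the genotypes thus turned between d0 and d4, with no overlap on any of the 3 days, and the d6 difference exceeded that of d0 by 2.21 (SE 0.22, adjusted p = 5.34e-07), the largest value among the 72 genes. Dnajc3 (p58IPK, chr14:118937976-118981697), an ER J protein that also inhibits the kinase PERK, measured 63.1, 77.4 and 73.3 TPM in Ctrl and 30.1, 28.2 and 28.5 TPM in Zeb2 KO at d0 (log2 FC -1.27, SE 0.08, adjusted p = 1.79e-08). At d4 and d6 it was not called (-0.17 and -0.06), and Ctrl fell from d0 to d4 by 0.73 and Zeb2 KO rose by 0.37. Fkbp9 was higher at d6 (log2 FC 0.39, SE 0.06, adjusted p = 5.36e-05), the disulfide reductase Dnajc10 lower at d4 and d6 (-0.31 and -0.47), and the BiP partner Dnajb11 lower at d0 (-0.26). Of the 11 ER members, 3 were lower at d0, 1 was higher and 1 lower at d4, and 2 were higher and 2 lower at d6. The shares of all genes higher and lower were 10.6% and 16.4%, 12.7% and 32.7%, and 17.9% and 34.3% on these days. Dnajb11 at d0 was no longer called under removal of the chromosome medians (-0.11) and without Ctrl d0 replicate 3 or KO d0 replicate 3 (-0.24, adjusted p up to 0.0114). The Dnajc10 call at d4 was lost under median-ratio rescaling (-0.14), quantile normalization (-0.24), removal of the chromosome medians (-0.19) and the voom fit to recovered reads (-0.20) and without Ctrl d4 replicates 1, 2 or 3 or KO d4 replicates 1, 2 or 3 (-0.33 to -0.29, adjusted p up to 0.0202).

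The ER stress element of the unfolded protein response, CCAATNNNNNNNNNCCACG on either strand, occurred in the windows of Dnajc3, Hsp90b1 and Hspa5, 3 of 59 members (5.08%) against 0.137% of all genes. The stretches before the start sites of Dnajc3 (chr14:118937782-118937931, plus strand) and Hspa5 (chr2:34771940-34772089, plus strand, both GRCm38.p6 from RefSeq) are shown because the former was called at d0 and the latter on no day. The element is in capitals.
Dnajc3: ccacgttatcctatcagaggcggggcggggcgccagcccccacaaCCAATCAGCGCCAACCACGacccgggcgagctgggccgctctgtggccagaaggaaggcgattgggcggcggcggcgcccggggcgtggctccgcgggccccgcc
Hspa5: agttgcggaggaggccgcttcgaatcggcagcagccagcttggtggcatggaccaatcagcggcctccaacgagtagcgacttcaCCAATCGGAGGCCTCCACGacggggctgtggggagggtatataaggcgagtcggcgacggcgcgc
The element begins 105 bases before the start site of Dnajc3 and 65 bases before that of Hspa5. Of the 3 genes, Dnajc3 alone was called, at d0. A single E-box CACCTG (or CAGGTG on the other strand), a sequence that Zeb2 binds, occurred in the windows of 8 of 59 members (13.6%, namely Bag5, Dnajb1, Dnajb9, Dnajc28, Fkbp2, Fkbp6, Hsp90b1 and Hspa12a) and in 22.6% of all genes. Of these 8, 2 were higher and 2 lower at d0, none was called at d4 and 1 was lower at d6. Of all genes, 10.6% were higher and 16.4% lower at d0, 12.7% and 32.7% at d4, and 17.9% and 34.3% at d6. The study searched wider promoter stretches for paired motifs, so the E-box shares given here are not counts of its putative Zeb2 sites.

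The small heat shock proteins, which hold unfolded proteins without ATP, were called at d4 and d6 and not at d0. Of the 4, none was higher and 1 lower at d4 (12.7% and 32.7% of all genes) and 3 were higher at d6 (17.9% of all genes). At d4, 3 were higher and none lower under median-ratio rescaling and with chromosome medians removed, 2 and none under quantile normalization, 1 and none with voom and 2 and 1 in a fit to the 2 groups alone, which called 1 at d6. Hspb1 (HSP25, chr5:135887919-135889563) measured 112, 102 and 107 TPM in Ctrl and 116, 114 and 101 TPM in Zeb2 KO at d0 and the groups overlapped. It measured 34.6, 40.3 and 40.9 TPM in Ctrl and 54.5, 76.9 and 64.7 TPM in Zeb2 KO at d6 (log2 FC 0.74, SE 0.13, adjusted p = 9.30e-05), after 56.7, 48.5 and 45.8 TPM in Ctrl and 69.1, 51.3 and 65.5 TPM in Zeb2 KO at d4, where the groups overlapped (log2 FC 0.29, adjusted p = 0.0596). Both genotypes fell from d0 to d4, by 1.08 in Ctrl and 0.83 in Zeb2 KO. Hspb8, a partner of Bag3 in selective autophagy, fell further from d0 to d4, by 2.11 in Ctrl and 1.74 in Zeb2 KO, and was higher in Zeb2 KO at d6, with 30.4, 36 and 44.3 TPM in Ctrl and 45.7, 60.5 and 65.8 TPM in Zeb2 KO (log2 FC 0.62, SE 0.14, adjusted p = 0.00111). Hspb2, best known from muscle, rose from d4 to d6 by 1.56 in Ctrl and 1.59 in Zeb2 KO, reaching 16.3, 21.6 and 24.9 TPM in Ctrl and 22.5, 45 and 46.7 TPM in Zeb2 KO (log2 FC 0.78, SE 0.24, adjusted p = 0.0087), with overlap of the groups. It rests on 6 to 131 reads per library and shares exon bases with Cryab. Hspb11 (IFT25), which despite its name works in intraflagellar transport, was lower at d4, with 14.4, 13.2 and 14.6 TPM in Ctrl and 9.82, 9.13 and 8.37 TPM in Zeb2 KO (log2 FC -0.58, SE 0.14, adjusted p = 0.00262). The 4 genes summed to 150.1% of Ctrl at d6. For Hspb2 at d6, the call ended under a pseudocount of 0.1 (0.81), in a fit to its 2 groups alone, without the intensity trend and without Ctrl d0 replicate 1, Ctrl d4 replicates 1, 2 or 3, Ctrl d6 replicates 1 or 2, KO d0 replicates 2 or 3, KO d4 replicate 1 or KO d6 replicates 2 or 3 (0.60 to 0.81, adjusted p up to 0.051). Hspb8 at d6 was no longer called in a fit to its 2 groups alone. The Hspb11 call at d4 was lost under median-ratio rescaling (-0.42), quantile normalization (-0.26), removal of the chromosome medians (-0.44) and the voom fit to recovered reads (-0.52) and without Ctrl d4 replicate 3 or KO d4 replicate 3 (-0.55 to -0.53, adjusted p up to 0.0128).

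The J proteins were the largest class and moved in both directions. Of 27 (2 DNAJA, 6 DNAJB and 19 DNAJC), 3 were higher and 5 lower at d0, 2 were higher and 4 lower at d4, and 5 were higher and 8 lower at d6, beside the shares of all genes given above. Median-ratio rescaling turned these to 6 and 4, 6 and 3, and 6 and 6, and removal of chromosome medians to 5 and 3, 6 and 2, and 7 and 6. Dnajc12, Dnajb4 and Dnajb3 were scarce members, and the ER gene Dnajc3, described above, also differed strongly at d0. Dnajc12 (chr10:63382443-63410576), a partner of the aromatic amino acid hydroxylases, measured 3.43, 3.36 and 3.67 TPM in Ctrl and 3.58, 2.81 and 3.58 TPM in Zeb2 KO at d0 and 12.1, 9.63 and 7.66 TPM in Ctrl and 2.77, 2.45 and 2.71 TPM in Zeb2 KO at d6 (log2 FC -1.55, SE 0.18, adjusted p = 1.44e-06). It rose from d4 to d6 in Ctrl (0.96, adjusted p = 0.000244), while the change in Zeb2 KO was -0.01, adjusted p = 0.954. Its counts ran from 24 to 150 reads per library. Dnajb4, a heart-enriched J protein, was lower at d6 (log2 FC -0.64, SE 0.17, adjusted p = 0.00328), and the testis gene Dnajb3 at d4, with 11.2, 7.37 and 14.8 TPM in Ctrl and 6.41, 2.42 and 4.66 TPM in Zeb2 KO (log2 FC -1.16, SE 0.29, adjusted p = 0.00287), on 8 to 58 reads. The authors kept genes with 5 TPM in at least 3 samples, and Dnajb4 reached 5 TPM in the Ctrl d6 libraries alone. Its lower level in Zeb2 KO at d6 is therefore tied to that filter and carries no weight as a result. The filter bears on Dnajc12 too, as its Ctrl d6 libraries lay above 5 TPM and its d0 and Zeb2 KO d6 libraries below. Its rise in Ctrl by d6 and its lower level in Zeb2 KO at d6 are likewise tied to that filter and carry no weight as a result. Dnajc6 (auxilin), which uncoats clathrin vesicles, fell in Ctrl from 16.6 ± 1.28 TPM at d0 to 1.21 ± 0.277 at d6 and in Zeb2 KO from 11.5 ± 1.74 to 1.84 ± 0.145. For Dnajb4 at d6, the call ended under median-ratio rescaling (-0.51), quantile normalization (-0.22) and removal of the chromosome medians (-0.51), in a fit to its 2 groups alone and without Ctrl d6 replicate 1 or KO d6 replicates 1 or 3 (-0.60 to -0.51, adjusted p up to 0.0216). Dnajb3 at d4 was no longer called under quantile normalization (-0.88) and removal of the chromosome medians (-1.001), in a fit to its 2 groups alone and without Ctrl d4 replicates 1 or 3 or KO d4 replicate 2 (-1.13 to -0.86, adjusted p up to 0.0198).

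Of the better expressed J proteins, Dnajc5 (the vesicle protein CSP-alpha) was the J protein lower on every day, with 50.4, 45.5 and 49.3 TPM in Ctrl and 36.4, 37.9 and 35.3 TPM in Zeb2 KO at d0 (log2 FC -0.40, SE 0.08, adjusted p = 0.000726). It gave 55.7, 55.8 and 57.3 TPM in Ctrl and 34.9, 38.7 and 38.7 TPM in Zeb2 KO at d4 (log2 FC -0.58, SE 0.08, adjusted p = 1.28e-05) and 65.1, 67 and 70.5 TPM in Ctrl and 56, 49.5 and 43.8 TPM in Zeb2 KO at d6 (log2 FC -0.44, SE 0.08, adjusted p = 0.000121), without overlap on any day. Dnajc14 measured 89.8, 86.5 and 89.2 TPM in Ctrl and 59.5, 54 and 58.7 TPM in Zeb2 KO at d4 (log2 FC -0.62, SE 0.06, adjusted p = 2.40e-07) and was lower at d6 also (-0.51), with the reservation that it overlaps Ormdl2. Dnajc9, a histone cochaperone, rose in Ctrl from 143 ± 8.36 TPM at d0 to 283 ± 2.02 at d6, and its difference was -0.26 at d0, 0.06 at d4 (not called) and -0.49 at d6. On the side of higher values, the ribosome-associated Dnajc2 and Dnajc21 and the spliceosome-associated Dnajc8 differed by 0.50, 0.53 and 0.29 at d6, and Dnajc21 and Dnajc8 by 0.35 and 0.40 at d4. Dnajc4 and Dnajc18 were lower at d6 (-0.36 and -0.47). Dnajc9, Dnajc2, Dnajc21, Dnajc8, Dnajc4 and Dnajc18 are named here with their values already known. The Dnajc9 call at d0 was lost under median-ratio rescaling (-0.22), quantile normalization (-0.19), removal of the chromosome medians (-0.15) and the voom fit to recovered reads (-0.23), in a fit to its 2 groups alone and without Ctrl d0 replicates 1 or 2 or KO d0 replicate 1 (-0.24 to -0.22, adjusted p up to 0.0171). For Dnajc21 at d4, the call ended without Ctrl d4 replicate 2 or KO d4 replicates 2 or 3 (0.29 to 0.35, adjusted p up to 0.0248). Dnajc4 at d6 was no longer called under median-ratio rescaling (-0.20), quantile normalization (-0.15), removal of the chromosome medians (-0.19) and the voom fit to recovered reads (-0.29), in a fit to its 2 groups alone and without Ctrl d6 replicates 2 or 3 or KO d6 replicate 2 (-0.35 to -0.25, adjusted p up to 0.0449). The Dnajc18 call at d6 was lost under quantile normalization (-0.25).

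The heat-inducible J protein Dnajb1 (HSP40, chr8:83608193-83612653) and the abundant Dnaja2 (chr8:85537633-85555344) lie on chromosome 8 and were higher at d0. Dnajb1 measured 138, 144 and 139 TPM in Ctrl and 246, 198 and 212 TPM in Zeb2 KO (log2 FC 0.63, SE 0.08, adjusted p = 1.41e-05) and Dnaja2 474, 472 and 487 TPM in Ctrl and 709.9, 720.5 and 688 TPM in Zeb2 KO (log2 FC 0.56, SE 0.04, adjusted p = 3.79e-08). Neither overlapped between the genotypes. With chromosome medians removed, the values were 0.28, adjusted p = 0.0184, for Dnajb1, and 0.22, adjusted p = 0.000325, for Dnaja2. Dnaja2 was higher also at d6, by 0.14 (SE 0.04, adjusted p = 0.00535). Dnajc27 on chromosome 12 went the other way at d0, with 22.6, 23.1 and 19.6 TPM in Ctrl and 13.9, 15.7 and 14 TPM in Zeb2 KO (log2 FC -0.55, SE 0.08, adjusted p = 3.66e-05), and -0.91, adjusted p = 3.88e-07 with chromosome medians removed. Dnajc7, on chromosome 11, was higher at d0 (log2 FC 0.29, SE 0.07, adjusted p = 0.00568). For Dnaja2 at d6, the call ended under quantile normalization (0.00), in a fit to its 2 groups alone, without the intensity trend and without Ctrl d6 replicates 1, 2 or 3 or KO d6 replicates 1 or 2 (0.11 to 0.15, adjusted p up to 0.0268). Dnajc7 at d0 was no longer called in a fit to its 2 groups alone, without the intensity trend and without Ctrl d0 replicates 1, 2 or 3 or KO d0 replicates 2 or 3 (0.23 to 0.30, adjusted p up to 0.0349).

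**Figure D4:**
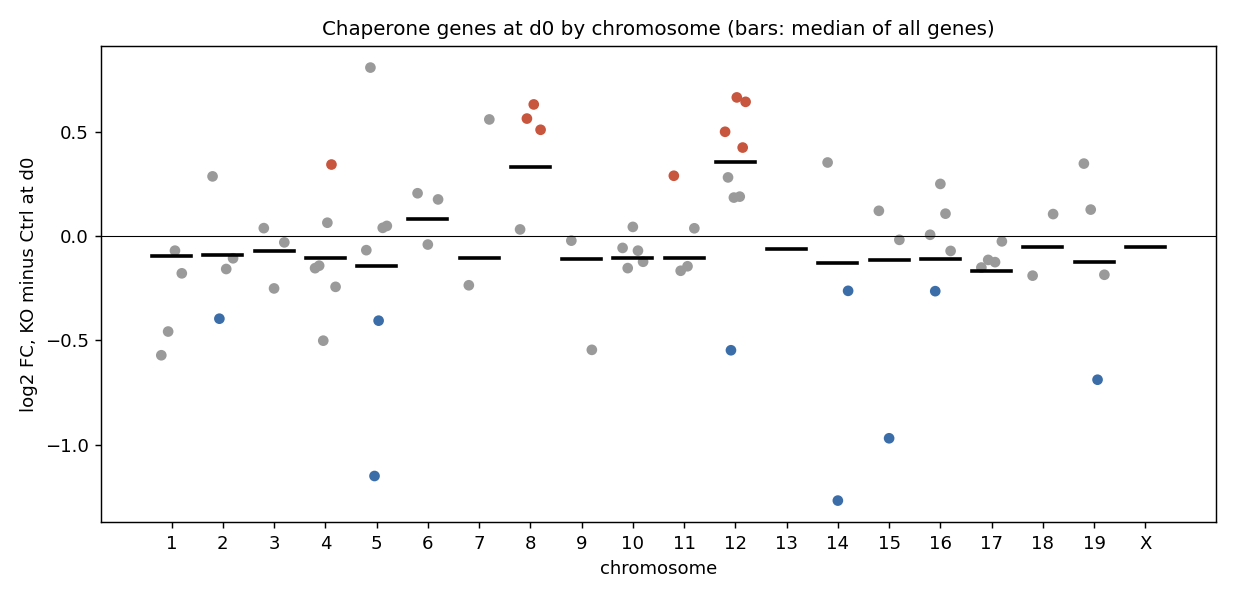
The log2 FC at d0 of the 72 genes, Zeb2 KO minus Ctrl on log2(TPM + 1) (vertical axis), by chromosome (horizontal axis). Red points are called higher and blue lower, grey points are not called, and each black bar is the median of all genes of the chromosome. Of the 12 members on chromosomes 8 and 12, 7 are called higher and 1 lower, and the bars of these chromosomes stand at 0.33 and 0.36.

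The d0 calls followed the chromosomes to a large extent. On chromosomes 8 and 12, 7 of the 12 members were higher and 1 lower, with a median log2 FC of 0.46, and the median of all genes there was 0.33 and 0.36. Of the 60 members elsewhere, 2 were higher and 8 lower, with a median of -0.07. With chromosome medians removed, 3 were higher and 2 lower on chromosomes 8 and 12, and 5 higher and 6 lower elsewhere. Dnaja2, Fkbp3 and Ahsa1 were the ones still higher on these chromosomes, and Bag5, Dnajb1, Fkbp8 and Hsp90aa1 were not called (0.14, 0.28, 0.16 and 0.06). At d4 and d6, when the chromosomes stood close together in the genotypes, the 12 members were split 4 higher and 1 lower, and 4 higher and 2 lower.

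The FKBP genes, prolyl isomerases that bind FK506, held several of the strongest single differences. Fkbp6 (chr5:135291704-135350044), a germ cell gene of the piRNA pathway, measured 89.1, 85.4 and 82.3 TPM in Ctrl and 41.6, 39.5 and 33.4 TPM in Zeb2 KO at d0 (log2 FC -1.15, SE 0.16, adjusted p = 3.46e-05). It fell in both genotypes by d4, to 14.8, 17.4 and 15.6 TPM in Ctrl and 12.3, 12 and 11 TPM in Zeb2 KO, a log2 change of -2.35 in Ctrl and -1.61 in Zeb2 KO. Fkbp5 (FKBP51, chr17:28399094-28517527), a steroid receptor cochaperone, measured 93.4, 93.1 and 98.3 TPM in Ctrl and 86.4, 91.9 and 84.7 TPM in Zeb2 KO at d0 and 41.3, 43.1 and 44.3 TPM in Ctrl and 70.1, 66.1 and 68.8 TPM in Zeb2 KO at d6 (log2 FC 0.66, SE 0.07, adjusted p = 4.78e-07). It fell in Ctrl from d4 to d6 by 0.52, and the change in Zeb2 KO was 0.06, adjusted p = 0.49. Its counterpart Fkbp4 (FKBP52) was higher at d4 (0.29) and d6 (0.37), and so was the FK506 target Fkbp1a at d6 (0.43). Fkbp3 (chr12:65062424-65074007, chromosome 12), a nuclear FKBP, measured 1094, 1116 and 996 TPM in Ctrl and 1674, 1561 and 1859 TPM in Zeb2 KO at d0 (log2 FC 0.67, SE 0.07, adjusted p = 4.65e-06) and differed by 0.30, adjusted p = 0.00598 with chromosome medians removed. At d4 it was higher by 0.27 and at d6 not called. Fkbp8, on chromosome 8, was higher at d0 (0.51) and lower at d4 and d6 (-0.21 and -0.23). Fkbp15 showed the same turn, being higher by 0.34 in ESCs and lower on d4 (-0.42) and d6 (-0.64). The Fkbp3 call at d4 was lost under quantile normalization (0.13) and without Ctrl d4 replicates 2 or 3 or KO d4 replicates 1 or 2 (0.22 to 0.28, adjusted p up to 0.0305). For Fkbp4 at d4, the call ended under quantile normalization (0.08). Fkbp4 at d6 was no longer called under quantile normalization (0.11). The Fkbp8 call at d4 was lost under median-ratio rescaling (-0.03), quantile normalization (-0.13), removal of the chromosome medians (-0.02) and the voom fit to recovered reads (-0.09) and without KO d4 replicate 2 (-0.19, adjusted p = 0.0107). For Fkbp8 at d6, the call ended under median-ratio rescaling (-0.07), quantile normalization (-0.16), removal of the chromosome medians (-0.06) and the voom fit to recovered reads (-0.14) and in a fit to its 2 groups alone. Fkbp15 at d0 was no longer called in a fit to its 2 groups alone and without Ctrl d0 replicates 2 or 3 or KO d0 replicates 1 or 3 (0.30 to 0.34, adjusted p up to 0.0291). The Fkbp15 call at d4 was lost under median-ratio rescaling (-0.26) and quantile normalization (-0.12).

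The BAG proteins, nucleotide exchange factors of HSP70, were divided. Bag4 was higher at d4, with 65.5, 61.1 and 58.7 TPM in Ctrl and 87, 87.2 and 86.1 TPM in Zeb2 KO (log2 FC 0.49, SE 0.07, adjusted p = 2.64e-05), and at d6, with 33.1, 35.1 and 39 TPM in Ctrl and 53.8, 48.5 and 54.5 TPM in Zeb2 KO (log2 FC 0.54, SE 0.07, adjusted p = 5.69e-06). Bag2 (chr1:33745484-33757795), an inhibitor of the ubiquitin ligase CHIP, had the largest BAG difference, with 27.1, 29.6 and 32.1 TPM in Ctrl and 8.64, 11 and 13.3 TPM in Zeb2 KO at d6 (log2 FC -1.37, SE 0.18, adjusted p = 7.46e-06). It rose in Ctrl at each step, by 1.46 and 1.67, and in Zeb2 KO by 1.65 and 0.69. Bag3, the stress-inducible autophagy factor, measured 87.5, 92 and 88.4 TPM in Ctrl and 62.7, 62.3 and 69.9 TPM in Zeb2 KO at d4 (log2 FC -0.45, SE 0.08, adjusted p = 0.000215) and at d6 89.5, 93.3 and 103 TPM in Ctrl and 76.7, 93.9 and 90.1 TPM in Zeb2 KO, where it was not called. Bag6, which guides tail-anchored proteins, was lower at d4 and d6 (-0.42 and -0.35), Bag5 higher at d0 (0.50) and lower at d6 (-0.35), and Bag1 was not called on any day. The 6 genes summed to 91.4%, 89.6% and 89% of Ctrl at d0, d4 and d6. For Bag5 at d0, the call ended under removal of the chromosome medians (0.14). Bag5 at d6 was no longer called under median-ratio rescaling (-0.19), quantile normalization (-0.10), removal of the chromosome medians (-0.16) and the voom fit to recovered reads (-0.27) and in a fit to its 2 groups alone. The Bag2 call from d4 to d6 in Zeb2 KO was lost under quantile normalization (0.53), in a fit to its 2 groups alone and without KO d4 replicate 1 or KO d6 replicates 2 or 3 (0.51 to 0.68, adjusted p up to 0.0309).

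The changes over time were compared within each genotype. From d0 to d4, 26 of the 72 genes rose and 23 fell in Ctrl, against 45.1% and 22.3% of all genes. In Zeb2 KO, 25 rose and 22 fell, against 35.8% and 20.9%. Median-ratio rescaling moved the median change of all genes in Ctrl from 0.26 to -0.02 and the counts to 14 risen and 37 fallen, removal of chromosome medians to 10 and 37 and voom to 22 and 31, and in Zeb2 KO the first 2 gave 16 and 26, and 17 and 28. From d4 to d6, 13 rose and 23 fell in Ctrl (22.6% and 21.5% of all genes) and 13 rose and 17 fell in Zeb2 KO (21.5% and 19.9%). The d4 samples serve in both intervals, so the intervals are not independent.

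The members of largest change between d0 and d4 moved in the same direction in both genotypes. Hspa12a rose by 2.35 in Ctrl and 2.78 in Zeb2 KO, and Fkbp10, a collagen isomerase of the ER, by 2.03 and 2.58, from 2.85 ± 0.293 to 14.7 ± 1.17 TPM in Ctrl. Fkbp6 and Hspb8 were those that fell furthest in Ctrl, with Dnajc6 (-1.64), and in Zeb2 KO Hspb8, Fkbp6 and the axonemal Dnajb13 (-1.58, against -0.92 in Ctrl). Dnajb13 reached 5 TPM, which the authors required in at least 3 samples, in the Zeb2 KO d0 libraries alone. Its fall from d0 in Zeb2 KO is therefore tied to that filter and carries no weight as a result. The fall of Dnajc6 was smaller in Zeb2 KO (-0.84), by a difference of 0.80 (adjusted p = 0.00364), and for Fkbp6 and Dnajb13 the difference between the genotypes was not called (adjusted p = 0.0124 and 0.157). From d4 to d6, Hspb2, Bag2 and Dnajc3 (1.11) rose furthest in Ctrl, and Hsp90aa1 (-1.39), Dnajc6 (-1.35) and Ahsa1 (-0.91) fell furthest. In Zeb2 KO, Hspb2, Dnajc3 (1.22) and Dnajb3 (1.20) rose furthest, and Dnajc6 (-1.29), Hsp90aa1 (-1.02) and Fkbp3 (-0.82) fell furthest. Hsp90aa1, Ahsa1 and Fkbp3 lie on chromosome 12, whose relative level itself dropped from d4 to d6. In the median library it went from 0.28 to -0.21 in Ctrl and from 0.28 to -0.26 in Zeb2 KO. The falls of these 3 genes include that drop, and its part in them was not tested. On chromosomes 8 and 12, 9 of 12 members rose and none fell in Ctrl from d0 to d4, but 1 rose and 6 fell with chromosome medians removed. From d4 to d6 in Ctrl none of them rose and 9 fell, or 1 and 4 with the medians removed, and for Zeb2 KO the counts were 0 and 8, or 1 and 4. For Dnajb3 from d4 to d6 in Zeb2 KO, the call ended in a fit to its 2 groups alone and without KO d4 replicate 2 or KO d6 replicate 2 (0.90 to 1.05, adjusted p up to 0.0162).

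**Figure D5:**
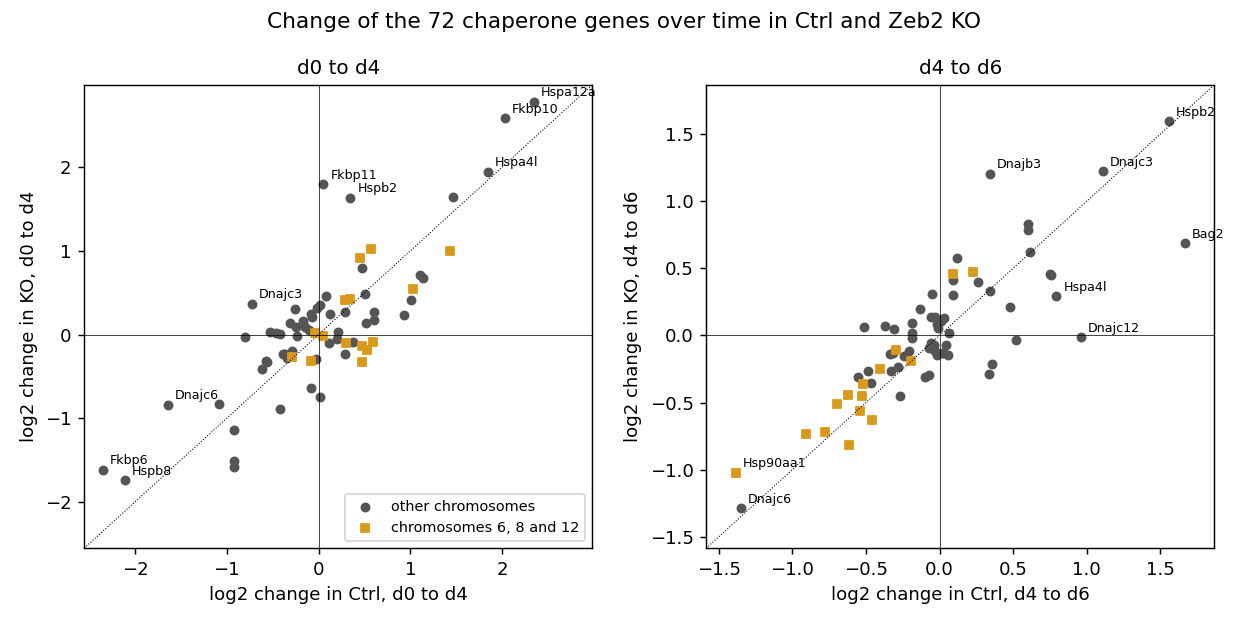
Change of each of the 72 genes on log2(TPM + 1) in Ctrl (horizontal axis) and Zeb2 KO (vertical axis) from d0 to d4 (left) and d4 to d6 (right), with members on chromosomes 6, 8 and 12 as yellow squares and a dotted line of equal change. Most genes lie near the line, Fkbp11 and Hspb2 lie above it from d0 to d4, Bag2 and Dnajc12 below it from d4 to d6, and the squares lie mostly below 0 on both axes from d4 to d6. The place of Dnajc12 is tied to the authors' expression filter and carries no weight as a result.

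A joint test asked which genes followed a different course in Zeb2 KO, that is whether the change from d0 to d4 or to d6 differed between the genotypes (moderated F test). It called 39 of the 72 chaperone genes, against 48.7% of all genes. By d6, 25 of these had moved up in Zeb2 KO relative to Ctrl and 14 down, compared with 20.2% and 28.5% of all genes. The 5 genes with the smallest adjusted p were Fkbp8 (2.46e-07), Dnajc3 (3.89e-07), Dnaja2 (4.14e-07), Fkbp11 (1.03e-06) and Fkbp5 (1.33e-05). Fkbp8 and Dnaja2 lie on chromosome 8. By class, 3 of 7 TRiC/CCT genes, both mitochondrial chaperonin genes, 2 of 3 HSP90 genes, 2 of 3 other cochaperones and 2 of 4 small heat shock proteins were called, all moving up in Zeb2 KO. The called genes were split 5 up and 3 down among the FKBP genes, 3 and 1 among HSP70 and HSP110, 1 and 1 in DNAJB, 4 and 6 in DNAJC, 0 and 1 in DNAJA and 1 and 2 in BAG. Median-ratio rescaling gave 44 genes and removal of chromosome medians 38.

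Genes that work with these chaperones were taken from a list of 51, of which 44 were measured. At d0, 4 of the 44 were higher and 11 lower in Zeb2 KO, at d4 10 were higher and 3 lower, and at d6 17 were higher and 1 lower. The shares of all genes were 10.6% and 16.4%, 12.7% and 32.7%, and 17.9% and 34.3%. Of 16 HSP90 and HSP70 partners, 7 were higher and 2 lower at d4 and 8 higher and 1 lower at d6, and of the 6 subunits of prefoldin, which hands actin and tubulin to TRiC/CCT, 2 were higher at d4 and 4 at d6, with none lower. The prefoldin subunit Vbp1 measured 205 ± 3.81 TPM in Ctrl and 339.5 ± 18.6 TPM in Zeb2 KO (log2 FC 0.73, SE 0.09, adjusted p = 2.69e-06) at d6 and Pfdn2 140.4 ± 7.90 TPM in Ctrl and 211 ± 16.8 TPM in Zeb2 KO (log2 FC 0.58, SE 0.06, adjusted p = 2.17e-07). Tomm34, which brings HSP70 and HSP90 to mitochondrial precursors, measured 51.9 ± 1.06 TPM in Ctrl and 96.4 ± 2.84 TPM in Zeb2 KO (log2 FC 0.88, SE 0.07, adjusted p = 1.58e-08) at d6. Stub1, the ubiquitin ligase CHIP, which Bag2 inhibits, was the partner lower at both d4 and d6, with 181 ± 11 TPM in Ctrl and 115 ± 15.4 TPM in Zeb2 KO (log2 FC -0.65, SE 0.13, adjusted p = 0.000328) at d6. Of 13 other ER folding genes, 2 were higher (Herpud1 0.65, Calr 0.49) and 3 lower at d0 (Creld2 -0.40, Hyou1 -0.37, Pdia6 -0.26). None was called at d4, and 3 were higher at d6 (Manf 0.53, Sil1 0.49, Hyou1 0.22). Of 3 unfolded protein response factors measured, Xbp1 was lower at d0 and d4 (-0.42 and -0.20). Atf4 was higher at d4 and d6 (0.37 and 0.54), and Ddit3 was not called. These ER genes and factors were named with their values seen.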

How the data were processed

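RNA-seq reads were mapped by the authors to GRCm38 with Tophat2 (2.0.13) and counted per gene with featureCounts (1.4.6). The deposited values are TPM, from which the authors had removed short noncoding genes, genes without 5 TPM in at least 3 samples and the 20% least variable genes. The deposited score columns (a variance and a variance divided by the mean) were not used. Of 11046 rows, 81 repeats were dropped. Dividing by the smallest steps of the TPM values gave whole reads for all 10965 genes.

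The fit was limma 3.58.1 (R 4.3.3) on log2(TPM + 1), with 6 group means over 18 libraries, an intensity trend and no replicate block, tested on simulated data. Named genes were, per day and direction, the 5 largest non-overlapping called differences, per time interval and direction the 3 largest, the most abundant member of each class and the 5 smallest p of the F test of course; other names were added with their values seen. Members and lists were chosen with earlier results of these data known. Alternatives were pseudocounts of 0.1 and 5, a mean of at least 10 TPM, median-ratio, quantile and chromosome-median scaling, the 2 groups alone, no trend, a replicate block, adjusted p below 0.05, voom on recovered reads and leaving out each library. Promoter windows came from RefSeq (GRCm38.p6).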

Additional observations from a re-analysis of the deposited data

Results flagged for a closer look

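The KO minus Ctrl difference on log2(TPM + 1) was compared between d6 and d0 by a test of the interaction (limma, adjusted over all genes, 3 libraries per group). It differed for 36 of the 72 chaperone genes at adjusted p below 0.01. The difference moved up in 33.3% of the members and down in 16.7%, beside 17.8% and 25.9% of all genes. The values below are the d6 difference minus the d0 difference. The groups of 3 libraries were too small for a test of single outlying libraries.

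In 24 genes the difference moved up. Fkbp11 led with 2.21, followed by the scarce Hspb2 with 1.33 and by Dnajc3 with 1.21, whose d0 value was the low one. Fkbp6 gave 0.92, Hspe1 0.87 and Dnajc6 0.87. Fkbp5 gave 0.77, Ptges3 0.73 and Hspb1 0.70. The chaperonin subunits Cct2, Cct3, Cct8 and Cct7 gave 0.54, 0.52, 0.43 and 0.30. Fkbp1a, Dnajc2 and Stip1 gave 0.59, 0.57 and 0.56. Bag4, Hspa9 and Dnajc27 gave 0.51, 0.48 and 0.46. Hspa4, Fkbp9 and Dnajb11 gave 0.43, 0.43 and 0.42, and the HSP90 genes Hsp90ab1 and Hsp90aa1 0.38 and 0.31.

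In 12 genes it moved down. Dnajc12 gave -1.49 and Hspa13 -1.06. The Dnajc12 value is tied to the authors' filter of 5 TPM in at least 3 samples, as described above, and carries no weight as a result. Fkbp15, Bag5 and Dnajc10 gave -0.98, -0.85 and -0.76. Fkbp8, Dnajc4 and Dnajb1 gave -0.74, -0.71 and -0.65. Fkbp3, Dnaja2, Dnajc7 and Dnajc14 gave -0.60, -0.43, -0.41 and -0.36. Fkbp8, Dnajb1 and Dnaja2 lie on chromosome 8 and Fkbp3 and Bag5 on chromosome 12, the chromosomes whose median stood higher in Zeb2 KO at d0. The part of these chromosomes in the values was not tested.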

How the results depend on the processing

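Under the alternatives, the totals of called chaperone genes stayed within 1.5 times those reported, except that an adjusted p below 0.05 gave 32 in place of 18 at d0 and a fit to the 2 groups alone gave 18 in place of 30 from d4 to d6 in Zeb2 KO. The split by direction moved further, from 19 higher and 9 lower at d4 to 33 and 5 under median-ratio rescaling and 34 and 5 with chromosome medians removed, and from 26 risen and 23 fallen in Ctrl from d0 to d4 to 14 and 37 and to 10 and 37. Leaving out 1 library at a time gave 15 to 20 genes at d0, 21 to 35 at d4, 39 to 43 at d6, 44 to 52 and 30 to 38 for the 2 intervals in Ctrl, 40 to 48 and 24 to 32 in Zeb2 KO, and 36 to 40 in the test of course. The replicate block gave 17, 29 and 41 genes at d0, d4 and d6, 48 and 34 for the intervals in Ctrl, 46 and 28 in Zeb2 KO, and 38 in the test of course, and it ended 5 single calls (Fkbp15 at d0, Dnaja2 at d6 and from d0 to d4 in Zeb2 KO, Dnajb3 from d0 to d4 and Dnajc5 from d4 to d6 in Ctrl). The study calls the libraries of a stage independent experiments, and the labels do not say that a number marks 1 experiment across groups. Deviations of same-numbered libraries correlated with r from -0.09 to 0.34 (median 0.15), above 0.1 in 29 of 45 pairs, while those of different numbers had a median r of -0.05 and exceeded 0.1 in 1 of 90 pairs. In 70 of 90 combinations of a library with another group the own number correlated best, and in every other group for 11 of 18 libraries, a hint from the data that numbers share variation. The fit reported had no pairing, as the labels do not state it, and its p-values took no account of such shared variation. The counts with the replicate block are those given above.

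Of 186 called values of single genes, 114 held their direction and call in every check, 34 lost the call without at least 1 library and 56 lost the call or turned under at least 1 of the 4 other scalings. Signs turned in 10 checks. With chromosome medians removed, the Ctrl change from d0 to d4 became -0.20 for Dnajb1, -0.15 for Fkbp8, -0.30 for Dnajc27, -0.45 for Fkbp3, -0.20 for Dnaja2 and -0.11 for Bag4, and that of Dnajb1 from d4 to d6 became 0.046. Fkbp3 from d0 to d4 in Ctrl became -0.0041 under median-ratio rescaling. Under quantile normalization, Hsp90ab1 at d6 became -0.020 and Dnajb4 from d0 to d4 in Zeb2 KO -0.0045. The cause was not tested. Depth limits the scarce members, such as Hspb2 (6 to 131 reads per library), Dnajb13 (3 to 74) and Dnajb3 (8 to 58).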

Other observations

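Several measured rows carry chaperone names but did not meet the definition, being labelled as pseudogenes or, for Cct6a, as a processed transcript. Cct6a is named for a TRiC/CCT subunit, and that label alone kept it out. With a mean of 539 TPM, it had log2 FC -0.03, 0.45 and 0.29 at d0, d4 and d6. The processed pseudogene Hspd1-ps3 (424 TPM) had -0.05, 0.38 and 0.19, and Hspa9-ps1 (235 TPM) 0.13, 0.29 and 0.53. Hsp25-ps1 (129.8 TPM), a pseudogene of Hspb1, had -0.02, 0.30 and 0.77. Cct3-ps1 (84.3 TPM) had 0.15, 0.34 and 0.32, and Dnajc19-ps (183 TPM) -0.08, 0.26 and 0.25. The scarce Hspe1-ps3 (3.81 TPM) had -0.57, -0.17 and -0.10, where Hspe1 itself was higher at d4 and d6 (0.59 and 0.69). These values stand beside those of the parent genes, with which they may share reads.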
